A study of Mus musculus with 2 samples.

Results

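Enteroendocrine cells are scattered secretory cells of the gut epithelium that store peptide hormones or serotonin in granules and release them when they sense nutrients, bile acids or microbial products. The genes described here are 10 of the 27998 genes of the deposited count tables, taken by symbol: the peptide hormone genes *Nts*, *Pyy*, *Gcg*, *Cck*, *Sct*, *Ghrl*, *Sst*, *Gip* and *Iapp*, and *Tph1*, which encodes the enzyme that makes the serotonin precursor in the gut. They were followed in single cells of the ileal epithelium of C57BL/6 mice aged 8 weeks. One group was WT and the other *Tipe0*-/- (*Tnfaip8*-/-), which lacks a member of the TNFAIP8 family of lipid-binding proteins, and the mice of both groups were uninjured. The labels give ileal enterocytes as the cell type but call the material digested enteroids, so the labels alone do not tell whether the cells were cultured. The study itself describes isolated enterocytes, sequenced to profile the epithelium of undamaged mice, with the mice of a group pooled beforehand. The study's methods give 3 mice per genotype, each genotype has 1 library, and its cells carry no label of the mouse, so genotype and library cannot be told apart and no test between genotypes was possible.

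In the ileum, L cells are the classical source of peptide YY and the proglucagon peptides and N cells that of neurotensin, hormones that slow transit, raise insulin or act on fat uptake. Other types are named for their main product, such as I cells for cholecystokinin, K cells for the incretin GIP, D cells for somatostatin and enterochromaffin cells for serotonin. These types overlap, and 1 cell can hold the transcripts of several hormones.

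The WT library held 3402 cells and 38127808 unique molecular identifiers (UMIs, each 1 captured mRNA molecule), and the *Tipe0*-/- library 2006 cells and 23897126 UMIs, with medians of 7760 and 7307.5 UMIs per cell. *Tnfaip8*, the targeted gene, had 372 UMIs in the WT library (9.76 per 1000000 UMIs of the library, or CPM) and 57 in the library labelled *Tipe0*-/- (2.39 CPM). Whether these 3′ tags lie in the deleted part of the gene is not given in the sources used here. The libraries shared 9 cell barcodes, and none of these cells held more than 3 UMIs of any hormone gene. Intervals are 95% and cover counting error only, and log2 ratios are *Tipe0*-/- over WT after 0.5 UMI was added to both sums. Over the 11665 genes with at least 50 UMIs in the libraries together the ratio had a median of 0.15.

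All 10 genes matched a RefSeq promoter window (GRCm38.p6), and short stretches are shown for 4 to set side by side *Gcg*, *Nts* and *Sst*, whose UMIs sat in a few cells, and *Sct*, which was found in 29.9% of WT and 30.3% of *Tipe0*-/- cells. For *Gcg* (chr2:62483654-62483803) and *Sct* (chr7:141279134-141279283), both on the minus strand, the 150 bases before the RefSeq start are given. The GENCODE models of *Nts* and *Sst* start further upstream, so 30 bases around a motif are given for *Nts* (chr10:102490467-102490496) and *Sst* (chr16:23890874-23890903), also on the minus strand. Capitals mark exact matches, on either strand, to TGACGTCA (the cAMP response element), TGACATCA (the same with 1 base changed), TATAAA (the TATA box), CAGATG (an E-box, the kind of element bound by basic helix-loop-helix factors) and GGGCGG (the GC box).
Gcg: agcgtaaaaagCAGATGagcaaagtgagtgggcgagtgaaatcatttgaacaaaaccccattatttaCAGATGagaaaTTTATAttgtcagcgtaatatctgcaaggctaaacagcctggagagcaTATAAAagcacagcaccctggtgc
Sct: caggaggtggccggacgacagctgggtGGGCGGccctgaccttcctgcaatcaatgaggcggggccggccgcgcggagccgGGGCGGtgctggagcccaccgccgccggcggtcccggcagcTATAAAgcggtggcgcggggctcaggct
Nts: ctgtgtagccaTGACATCAtcctcctgctc
Sst: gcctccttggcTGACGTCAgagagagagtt
In *Gcg* the 2 E-boxes started at 139 and 83 bases before the start, and a TATA box at 24 bases before it, with a second match on the other strand. *Sct* had 2 GC boxes and a TATA box at 28 bases before the start. *Sst* held the full cAMP response element at 48 bases before the RefSeq start, and *Nts* the changed form at 67. Both of these motifs lie after the start of the GENCODE model, within the gene. Over all 32851 windows, cut to the same 150 bases, 1.36% held TGACGTCA, 2.32% TGACATCA, 7.57% TATAAA, 8.81% CAGATG and 28.6% GGGCGG. No other hormone gene held TGACGTCA or TGACATCA in these 150 bases. CAGATG was also found for *Cck* and *Iapp*, and GGGCGG for *Tph1* in 1 of its windows, while *Nts* and *Sst* held neither. These motifs thus did not divide the genes found in a few cells from *Sct*. A match describes letters only.

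Hormone transcripts were concentrated in a small number of cells. The 10 richest cells of a gene held at least 50% of its UMIs for 9 of the 10 genes in WT cells and for 6 of the 7 genes with at least 50 UMIs in the *Tipe0*-/- library. Among all genes with at least 50 UMIs the same held for 0.318% and 0.42%, and the median gene had 4.97% and 7.02% of its UMIs in its 10 richest cells. *Nts* was at 97.6% and 99.3%, *Sst* at 96.9% in WT cells and *Ghrl* at 92.0% and 99.7%. *Sct* was the exception, at 44.3% and 33.1%. For the genes called here, the library levels given next thus rest mainly on a few cells, while those of *Sct* come from 1017 and 607 cells. Its UMIs were still uneven: 43 WT and 34 *Tipe0*-/- cells with at least 10 UMIs of it held 55.6% and 45.4% of them.

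*Nts* and *Ghrl* were at least 2-fold higher in the *Tipe0*-/- library (2 of 10, against 1.53% of all genes), *Pyy*, *Cck*, *Gip*, *Sst* and *Iapp* were at least 2-fold lower (5 of 10, against 2.43%), and *Gcg*, *Sct* and *Tph1* lay within 2-fold. The median log2 ratio of the 10 was -0.89. *Nts*, neurotensin (ENSMUSG00000019890, chr10:102481756-102490486), had 835 UMIs in the WT library (21.9 CPM, 20.4 to 23.4) and 3412 in the *Tipe0*-/- library (142.8 CPM, 138.0 to 147.7), a log2 ratio of 2.70. *Ghrl*, the appetite hormone ghrelin (ENSMUSG00000064177, chr6:113716119-113719880), had 4.28 CPM (3.64 to 4.98) and 13.9 (12.5 to 15.5), a log2 ratio of 1.70. *Pyy*, peptide YY (ENSMUSG00000017311, chr11:102106676-102107832), had 46.4 CPM (44.3 to 48.6) and 12.6 (11.3 to 14.1), a log2 ratio of -1.87. The direction of *Nts* is not stable: it turned to -2.66 without the 5% of cells with the highest doublet scores, and within the enteroendocrine-like cluster *Nts* had 43 UMIs in WT and 1 in *Tipe0*-/- cells.

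*Gcg*, which encodes GLP-1 and GLP-2 in the gut (ENSMUSG00000000394, chr2:62474530-62483650), had 22.4 CPM in WT and 37.2 in the *Tipe0*-/- library, a log2 ratio of 0.74 (0.60 to 0.87). *Cck*, cholecystokinin (ENSMUSG00000032532, chr9:121489824-121495694), had 8.66 and 3.43 CPM (log2 ratio -1.33, -1.70 to -0.98). *Gip* (ENSMUSG00000014351, chr11:96024545-96030831) had 4.43 and 1.42 CPM (-1.62, -2.22 to -1.10). Both are best known from the upper small intestine. *Sst*, somatostatin, which restrains the release of other hormones (ENSMUSG00000004366, chr16:23889573-23890958), had 21.7 and 2.93 CPM (-2.88, -3.26 to -2.54). *Iapp*, amylin (ENSMUSG00000041681, chr6:142298423-142303961), had 3.49 and 0.335 CPM (-3.30, -4.62 to -2.36). *Sct*, secretin, which drives bicarbonate secretion (ENSMUSG00000038580, chr7:141278330-141279133), had 120.2 and 105.9 CPM (-0.18, -0.25 to -0.11). *Tph1* (ENSMUSG00000040046, chr7:46644641-46672537) had 1.44 CPM from 55 UMIs and 1.05 from 25, and the interval of its log2 ratio of -0.45 held 0 (-1.21 to 0.24). Under 8 other scalings, weightings and sets of cells the log2 ratio of *Pyy* lay between -2.79 and -1.66, of *Cck* between -2.31 and -1.21, of *Gip* between -2.48 and -1.09 and of *Iapp* between -4.43 and -2.08, so these stayed at least 2-fold lower. The widest moves came from giving each cell equal weight or from leaving out the richest cells. *Gcg* lay between 0.34 and 0.79. All 8 settings drew on cells of the same 2 libraries, so they do not cover which cells were sampled. *Gip* had 3 WT cells and 1 *Tipe0*-/- cell with at least 10 UMIs, and *Iapp* 3 and 0.

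**Figure D1:**
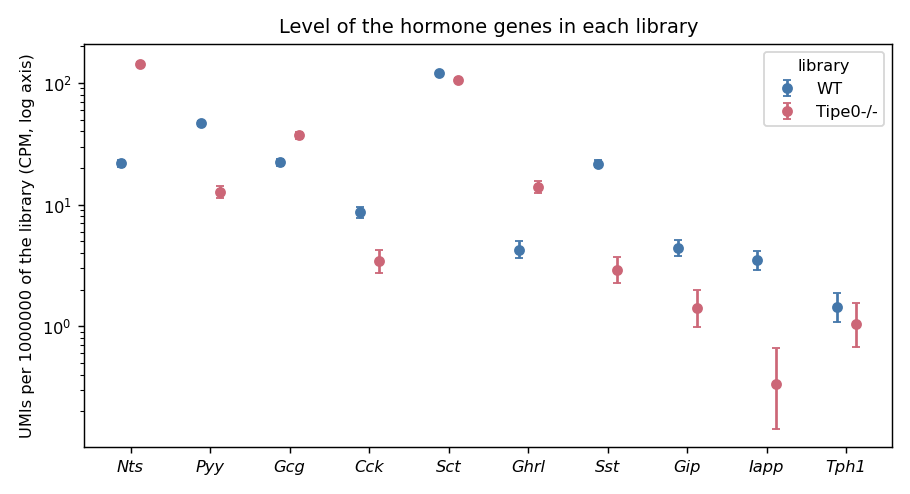
Level of each hormone gene in each library, in UMIs per 1000000 UMIs of the library (CPM) on a log axis. Points are 1 library each, bars are exact 95% Poisson intervals, and *Nts* at 21.9 and 142.8 CPM and *Sst* at 21.7 and 2.93 CPM lie furthest apart in opposite directions among genes above 20 CPM in a library.

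A cell with at least 10 UMIs of a gene is called rich in it below. There were 55 cells rich in any of the 10 genes in the WT library (1.62%, 1.22 to 2.1) and 50 in the *Tipe0*-/- library (2.49%, 1.86 to 3.27). About as many were rich in *Sct* alone (26 and 23) as in at least 1 other gene (29, or 0.852%, and 27, or 1.35%). This division was made after the values had been seen. The cells of these 2 sets are described apart.

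*Nts* was carried by very few cells. In the WT library 5 cells were rich in it, with 462, 282, 22, 20 and 15 UMIs. In the *Tipe0*-/- library 7 were, with 1596, 1469, 250, 25, 17, 13 and 12 UMIs. Rich cells were 0.147% of WT (0.0477 to 0.343) and 0.349% of *Tipe0*-/- cells (0.140 to 0.718), with overlapping intervals. The counts do not separate these shares, while the UMIs of the highest cells were further apart. The highest cell had 1596 UMIs of *Nts* and 310 of *Sct* among 4328 UMIs in all, so the hormone genes made up 44.4% of its transcripts, and the second had 1469 and 274 of 3974 (43.9%). These 3 cells were also among the 5% of cells with the highest doublet scores in their library. Such scores were not confined to them: 3 of 29 WT and 6 of 27 *Tipe0*-/- cells rich in a gene other than *Sct* had one. The second-richest *Sst* cell of each library, with 218 and 26 UMIs, was among these. The 3 highest *Nts* cells held 4328, 3974 and 5074 UMIs. The third lay in an enterocyte-like cluster with 41 UMIs of the enterocyte gene *Apoa1*, and the second held 11 of the goblet cell gene *Tff3*. Whether they are doublets was not tested. When the top 5% of cells by that score were left out, the log2 ratio of *Nts* turned to -2.66, and without the 3 richest cells of each library, a setting added after the data were seen, it was 1.16.

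**Figure D2:**
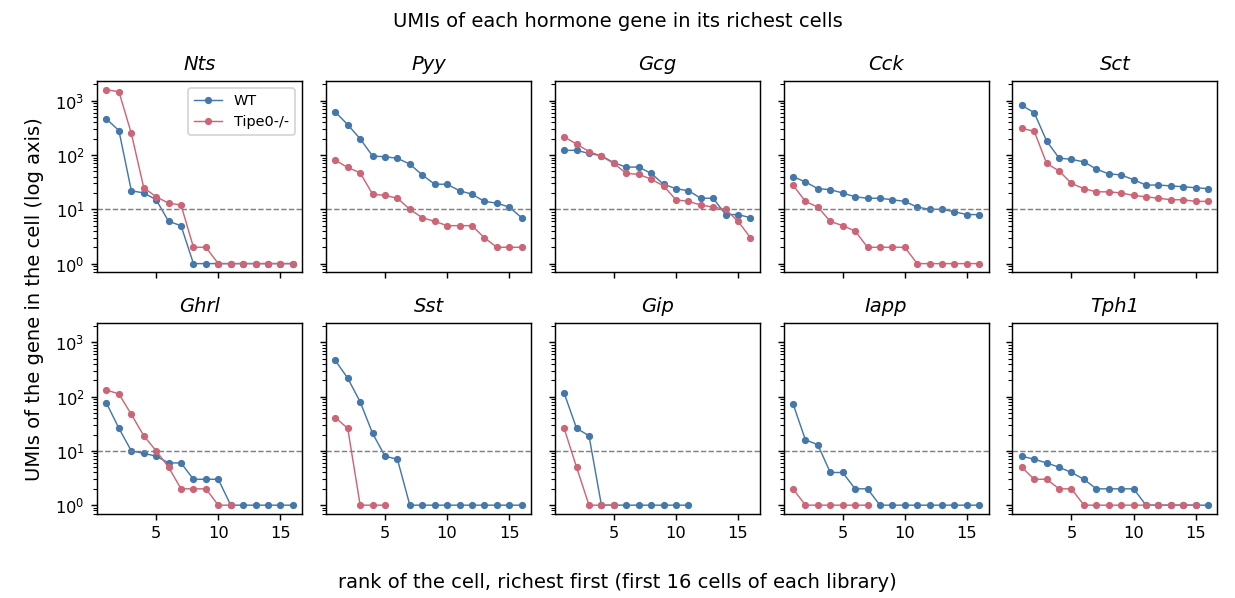
UMIs of each hormone gene (log axis) in its 16 richest cells of each library, ordered from the richest, with a dashed line at 10 UMIs. Cells without a UMI are not drawn. The curves of *Nts*, *Sst* and *Gip* drop below 10 UMIs within 8 cells in both libraries, *Sct* stays above 10 through all 16, and *Tph1* does not reach 10 in any cell.

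*Pyy* and *Gcg* were spread more evenly. *Pyy* had 15 rich cells in the WT library (0.441%), the highest with 620 UMIs, and 7 in the *Tipe0*-/- library (0.349%), the highest with 80. *Gcg* had 13 and 14 (0.382% and 0.698% of cells), with highest cells of 122 and 216 UMIs. Of the 15 WT cells rich in *Pyy*, 10 were rich in *Gcg*, and of the 7 *Tipe0*-/- cells, 6 were. Cells rich in both of these L cell products were thus seen in each library. *Cck* had 13 rich cells in the WT library (0.382%), at most 40 UMIs each, and 3 in the *Tipe0*-/- library (0.150%), with 28, 14 and 11. In the WT library 10 of the 13 *Cck*-rich cells were also rich in *Pyy* and 6 in *Gcg*. In the *Tipe0*-/- library 2 of the 3 were rich in *Pyy* and all 3 in *Gcg*.

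*Nts* kept different company in the 2 libraries, although on few cells. In the WT library 4 of 5 *Nts*-rich cells were rich in *Pyy* (80.0%, 28.4 to 99.5), the same number in *Cck* and 2 in *Gcg*. In the *Tipe0*-/- library 1 of 7 was rich in *Pyy* (14.3%, 0.361 to 57.9) and none in *Gcg* or *Cck* (0 of 7, which allows up to 42.9%, as 3 counts would give). The WT cell with the most *Nts* had 462 UMIs of it with 620 of *Pyy*, 823 of *Sct*, 26 of *Gip* and 17 of *Cck*. The *Tipe0*-/- cell with the most had 16 UMIs of *Pyy*, and the next 2 had none. The intervals of the 2 shares overlap.

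*Ghrl* had few rich cells (0.0882% of WT and 0.249% of *Tipe0*-/- cells). The 3 rich WT cells held 76, 26 and 10 UMIs, and the 5 rich *Tipe0*-/- cells 132, 112, 47, 19 and 10. Of these, 1 and 4 were rich in *Sct*, and 1 in each library was rich in *Gcg*. The higher *Ghrl* level rested on the richest cells: without the 3 richest of each library its log2 ratio was 0.40. *Gip* had 3 rich cells in the WT library, with 116, 26 and 19 UMIs, and 1 in the other, with 26. Of these 4 cells, 2 WT cells and the *Tipe0*-/- cell were rich in *Cck* as well.

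*Sst* and *Iapp* shared their cells. In the WT library *Sst* had 4 rich cells with 463, 218, 80 and 21 UMIs. The 3 cells rich in *Iapp*, with 74, 16 and 13 UMIs, were all among them, and *Sst* and *Iapp* had the highest correlation of any pair over the 3402 WT cells (Pearson r = 0.77 of log values, given as a description). Cells rich in *Sst* were 0.118% of WT (0.0320 to 0.301) and 0.0997% of *Tipe0*-/- cells (0.0121 to 0.360), with overlapping intervals. In the *Tipe0*-/- library *Sst* had 2 rich cells, with 41 and 26 UMIs. No cell there was rich in *Iapp* (0 of 2006, which allows up to 0.150%, as 3 counts would give). Both *Tipe0*-/- cells had over 20000 UMIs, lay in a goblet-like cluster and held 157 and 107 UMIs of *Tff3*, while the 2 highest WT cells held 1 and 3. The part of goblet cell transcripts in this difference was not tested. Without cells above 20000 UMIs, no *Tipe0*-/- cell (0 of 1628) and 3 WT cells of 2917 were rich in *Sst*. There 790 WT UMIs stood against 1, a log2 ratio of -8.06 (-13.9 to -6.16). Of these WT UMIs, 463, 218 and 80 lay in the 3 rich cells, so the interval does not cover which cells were sampled. Giving each cell equal weight, over all cells, made the log2 ratio -4.86. In neither library was an *Sst*-rich cell rich in *Nts*, *Pyy*, *Gcg*, *Cck*, *Ghrl* or *Gip*.

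Over all 45 pairs of genes, 21 were seen in at least 1 rich WT cell and 14 in a rich *Tipe0*-/- cell, 13 of them in both, and 23 in neither. In the WT library 20 cells were rich in 2 or more genes, 15 in 3 or more and 8 in 4 or more. In the *Tipe0*-/- library these counts were 14, 6 and 2. In WT the shares of all cells were 0.588%, 0.441% and 0.235%, and in *Tipe0*-/- 0.698%, 0.299% and 0.0997%. The counts of pairs were not adjusted for the 3402 and 2006 cells of the libraries. No cell was rich in *Tph1* in either library, nor in *Iapp* in the *Tipe0*-/- library. Pairs with these genes could thus not be seen there, and are counted among the unseen. The cells rich in most genes had 5 each, 4 WT cells and 1 *Tipe0*-/- cell.

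**Figure D3:**
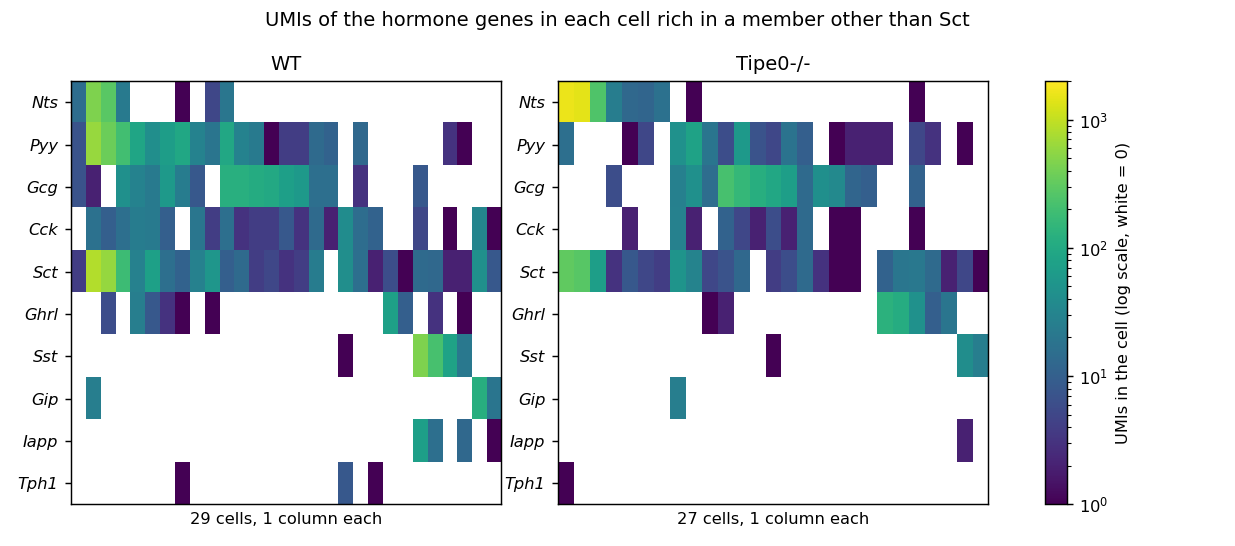
UMIs of the 10 hormone genes (rows) in each cell rich in a gene other than *Sct* (columns, 29 WT and 27 *Tipe0*-/- cells), ordered by the gene other than *Sct* with the most UMIs, on a log color scale with white for 0. The block of *Pyy*, *Gcg* and *Cck* is seen in both libraries, *Nts* stands with *Pyy* in WT and mostly without it in *Tipe0*-/- cells, and the cells led by *Sst* hold *Iapp* in 3 of 4 WT cells and little *Pyy*, *Gcg* or *Cck*.

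The depth of the hormone-rich cells differed between the libraries. Of the cells rich in a gene other than *Sct*, 7 of 29 WT and 14 of 27 *Tipe0*-/- cells had over 20000 UMIs, against 14.3% and 18.8% of all cells. Without cells above that depth, a setting added after the data were seen, 22 of 2917 WT cells (0.754%) and 13 of 1628 *Tipe0*-/- cells (0.799%) were rich in such a gene. Markers of Paneth cells were also uneven: 3 and 7 of these cells lay in Paneth-like clusters. The 12 Paneth markers summed to 102409 CPM in WT and 131726 CPM in the *Tipe0*-/- hormone-rich cells. In cells rich in none of the genes they summed to 82508 and 52627 CPM, and no marker was at 0. Per cell, they made up a median of 19.1 of every 10000 UMIs in WT and 15.1 in *Tipe0*-/- hormone-rich cells. In cells rich in none these medians were 23.3 and 12.04, so the median cell did not show the gap of the sums. Of these 12 genes, 0 in WT and 7 in *Tipe0*-/- cells were at least 2-fold higher in the hormone-rich cells. The part of depth and of Paneth transcripts in the hormone-rich cells was not tested.

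*Sct* differed from the other genes in being detected widely. At least 1 UMI was found in 1017 WT cells (29.9%) and 607 *Tipe0*-/- cells (30.3%), and in 28 of the 29 and 25 of the 27 cells rich in another hormone gene. To compare cell classes at 1 depth, each cell was thinned to 3000 UMIs, and classes were taken from clusters formed without the 10 genes. A *Sct* UMI was then found in 28.6% of 857 goblet-like WT cells (25.6 to 31.7) and 34.4% of 553 goblet-like *Tipe0*-/- cells (30.4 to 38.5), and in 17.0% and 15.7% of enterocyte-like and 14.5% and 15.6% of Paneth-like cells. Stem-like cells were at 1.88% and 1.79% and cycling-like cells at 1.03% and 1.08%. The unthinned shares were 54.1% and 64.7% in goblet-like, 33.3% and 29.2% in enterocyte-like and 3.05% and 2.68% in stem-like cells, whose median depths in the WT library were 12670, 6226 and 4786 UMIs. At equal depth the goblet-like and stem-like shares thus had intervals far apart in each library.

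The goblet-like clusters differed among themselves. In the cluster led by *Ido1*, *Zg16*, *Sval1* and *Fcgbp*, 55.1% of 167 WT and 66.7% of 102 *Tipe0*-/- cells had a *Sct* UMI at 3000 UMIs, and *Sct* stood at 454.1 and 652.9 CPM. In the cluster led by *Creb3l1* and *Spdef*, a transcription factor of goblet cell maturation, the shares were 18.2% and 21.6% and the levels 67.4 and 86.1 CPM. The last goblet-like cluster, led by *Zg16* and *Clca1*, lay between, at 32.8% and 50.6%. Tuft-like cells had a share of 23.5% in the WT (32 of 136, 16.7 to 31.6) and 2.33% in the *Tipe0*-/- library (1 of 43, 0.0589 to 12.3), while before thinning the shares were 49.3% and 46.5% and the levels 70.0 and 42.1 CPM. A share set by 1 cell gives no order. The largest enterocyte-like cluster differed between the libraries: one held 349 WT and 18 *Tipe0*-/- cells, with a share of 21.2% in WT cells, and another 2 and 181, with 19.3% in *Tipe0*-/- cells.

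**Figure D4:**
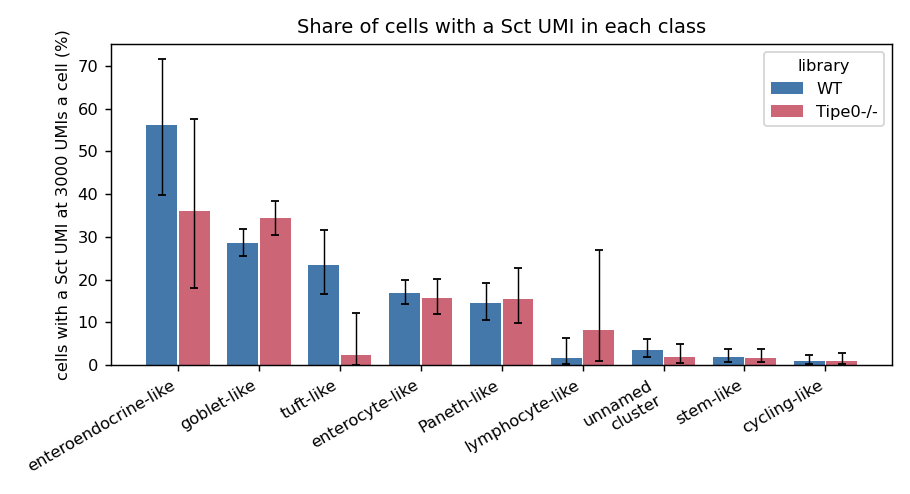
Share of cells with at least 1 *Sct* UMI after thinning each cell to 3000 UMIs, by cell class and library. Bars start at 0 and carry exact 95% binomial intervals. Enteroendocrine-like cells have the highest bars, at 56.1% and 36.0%, and goblet-like cells at 28.6% and 34.4% stand above stem-like cells at 1.88% and 1.79% in both libraries.

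The cells rich in *Sct* alone were mostly goblet-like. Of these, 15 of 26 in WT and 19 of 23 in the *Tipe0*-/- library lay in goblet-like clusters. Paneth-like clusters held 7 and 3 of them, and the enteroendocrine-like cluster 1 and 0. Among all cells, 857 of 3402 and 553 of 2006 were goblet-like. In the cells rich in *Sct* alone the 12 Paneth markers summed to 194731 and 76516 CPM, beside 82508 and 52627 in cells rich in none. The 10 goblet markers made up a median of 851 of every 10000 UMIs in the WT cells and 880 in the *Tipe0*-/- cells, beside 14.002 and 14.3 in cells rich in no hormone gene. In cells rich in another hormone gene the medians were 10.1 and 45.3. The genes whose levels were most like that of *Sct* over the cells of the WT library were *Hepacam2* (Pearson r of log values 0.43 in WT and 0.53 in the *Tipe0*-/- library), *Klk1* (0.43 and 0.54) and *Muc2*, the main intestinal mucin (0.42 and 0.56). Points of such a correlation are the cells of 1 library and share its depth.

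Likeness was also measured for the 5 other genes with at least 3 rich cells in each library, and not for *Sst*, *Gip*, *Iapp* and *Tph1*. *Nts* was most like *Scg2*, a granin of secretory granules (r = 0.64 and 0.57 over 3402 WT and 2006 *Tipe0*-/- cells), and also like *Ffar1*, a fatty acid receptor, and *Insm1*, a transcription factor of endocrine cells. *Pyy* was most like *Ffar1* (0.71 and 0.38), *Etv1* (0.67 and 0.81) and the calcium-binding protein gene *Scgn* (0.65 and 0.55). The same 3 genes came first for *Gcg*, led by *Etv1* (0.73 and 0.70). *Cck* was most like *Cpe*, which encodes the carboxypeptidase that trims prohormones (0.70 and 0.42), *Scgn* and *Etv1*. *Ghrl* was most like the transcription factor gene *Isl1* (0.48 and 0.49) and *Fam183b* (0.47 and 0.39).

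*Tph1* gave few UMIs per cell. No cell reached 10 UMIs of it, the highest having 8 in WT and 5 in the *Tipe0*-/- library (0 rich cells of 3402 and of 2006 allow up to 0.0882% and 0.150%). Cells with at least 20 UMIs of the granin gene *Chgb*, a limit set after the data were seen, numbered 16 and 10 and held 41 of 55 and 12 of 25 *Tph1* UMIs. With a limit of 10 *Chgb* UMIs the *Tipe0*-/- cells held 20 of the 25. The 6 WT cells with at least 3 *Tph1* UMIs held 148, 140, 51, 32, 54 and 44 UMIs of *Chgb*, in falling order of *Tph1*. Of the cells with at least 20 *Chgb* UMIs, 3 WT cells and 0 *Tipe0*-/- cells were rich in a hormone gene other than *Sct*. The *Nts*-richest *Tipe0*-/- cell and a WT cell with 93 UMIs of *Pyy* and 24 of *Gcg* each held 1 *Tph1* UMI. None of the 10 WT or 5 *Tipe0*-/- cells with at least 2 *Tph1* UMIs held a UMI of *Nts*, *Pyy*, *Gcg* or *Ghrl*. *Cck* and *Sct* were found in such cells. The WT cell with the most *Tph1* held 40 UMIs of *Cck* and 43 of *Sct*, and the next 8 and 88. The *Tipe0*-/- cells held no *Cck* and at most 21 UMIs of *Sct*. *Chgb* itself was spread unevenly: the cell with the most hormone UMIs in the WT library had 5 of it, and the *Nts*-richest *Tipe0*-/- cell 1.

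The enteroendocrine-like cluster, in which each of the 26 marker genes was found in at least 10% of cells and at least 1.5 times as often as elsewhere, held 41 WT cells (1.21%) and 25 *Tipe0*-/- cells (1.25%). It did not gather all hormone-rich cells. Of the cells rich in a gene other than *Sct*, 19 of 29 and 10 of 27 lay in it, and it held 39.6% and 22.6% of the UMIs of the 9 genes other than *Sct*. An unnamed cluster led by *Cldn8* and *Slc40a1* held 85.0% of the WT *Sst* UMIs and 89.9% of the *Tipe0*-/- *Nts* UMIs, in 3 and 2 rich cells, and the WT cell with 282 *Nts* UMIs fell in a cluster of B cell genes. When enteroendocrine-like cells were taken instead as those with at least 4 of the 26 markers detected, 66 WT and 62 *Tipe0*-/- cells held 95.9% and 97.3% of these UMIs. In enterocyte-like cells, which should lack the genes, the share with a UMI at 3000 UMIs was at most 0.737% in the WT library for the genes other than *Sct* and 2.52% for *Nts* in the *Tipe0*-/- library, where 2 *Nts*-rich cells fell in this class. The median depth of enterocyte-like cells was 6226 and 5508.5 UMIs.

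Within the enteroendocrine-like cluster the order of the libraries was the same for several genes. This is not separate from the library levels, as the cluster held 81.2% and 81.7% of the *Cck* and 85.3% and 84.1% of the *Ghrl* UMIs. For *Pyy* these shares were 34.5% and 46.4%. Of the 280 *Ghrl* UMIs of its *Tipe0*-/- cells, 132 lay in 1 cell and 112 in another. *Pyy* stood at 1199 CPM in WT and 332.4 CPM in the *Tipe0*-/- cells (log2 ratio -1.85, -2.13 to -1.58), *Cck* at 525.9 and 159.1 (-1.72) and *Ghrl* at 272.8 and 664.9 (1.28, 0.99 to 1.59). *Gcg* stood at 1387 and 1491 CPM (0.10, -0.05 to 0.26). *Nts* had 43 UMIs in WT and 1 in the *Tipe0*-/- cells of the cluster, against the direction of the whole libraries, since its richest cells lay elsewhere. *Sct* was at 1238 and 365.7 CPM in the cluster (-1.76, -2.02 to -1.50), although its level in the whole libraries was within 2-fold.

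Genes of the hormone pathway were read in the cells rich in a gene other than *Sct* against cells rich in none. A gene was called when its CPM was at least 2-fold higher there with at least 10 UMIs, which held for 1.84% of all tested genes in WT and 1.23% in the *Tipe0*-/- library. The all-gene median log2 ratios were 0.07 and -0.15. As a check of the label, 10 of the 12 enteroendocrine markers with enough UMIs were called in each library, and the 26 markers summed to 2403 CPM against 60.3 in WT and 908.2 against 78.3 in *Tipe0*-/- cells. Of the genes for prohormone processing and secretory granules, 8 of 12 and 7 of 11 with at least 50 UMIs in the library were called. Their median log2 ratios were 4.21 and 2.32. Among those called in both libraries, *Chga*, *Chgb*, *Cpe*, *Cplx2* and *Scgn* are also on the marker list, as are *Insm1*, *Neurod1* and *Ddc* below. *Pcsk1* was called in WT only, as its 6 UMIs in *Tipe0*-/- hormone-rich cells were too few for a call. *Scg2* was called in the *Tipe0*-/- library only, as its 38 UMIs in the WT library were too few. Both are on the marker list too. The lists are thus not separate from the check of the label. *Cpe* stood at 242.0 CPM against 1.504 in WT and 140.7 against 1.84 in the *Tipe0*-/- library. *Pam*, the enzyme that amidates peptides such as PYY, stood at 101.6 against 7.84 and 51.9 against 10.5 CPM. *Scg2* had 37 of its 38 and 50 of its 52 UMIs in these cells. *Chgb* reached 791.4 CPM in WT and 77.1 CPM in the *Tipe0*-/- hormone-rich cells, against 20.2 and 20.02 elsewhere, and *Chga* 210.5 and 46.9 CPM against 6.42 and 6.99. The WT values rested on 2 cells, both rich in *Cck*, with 148 and 96 UMIs of *Chgb*. Without the 2 cells of each library with the most *Chgb*, a setting added after the data were seen, *Chgb* stood at 219.3 CPM in WT and 48.1 in *Tipe0*-/- cells and *Chga* at 50.2 and 38.9.

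Of the enteroendocrine transcription factors 4 of 9 were called in each library, but not the same ones. *Insm1* and *Neurod1* were called in both, *Tox3* and *Sox4* in WT only. *Etv1* and *Rfx3*, the latter named after its values were seen, were called in the *Tipe0*-/- library only. *Rfx3* stood at 14.5 against 4.43 CPM in WT and 20.1 against 7.17 in the *Tipe0*-/- library, log2 ratios of 1.82 and 1.54. Its ratio was thus no lower in WT, where its 6 UMIs in hormone-rich cells were too few for a call. *Insm1* stood at 159.7 CPM against 1.24 in WT and 73.7 against 3.32 in the *Tipe0*-/- library, and *Neurod1*, which drives endocrine differentiation, at 108.9 against 1.32 and 58.6 against 1.22. *Etv1* had 39 of 43 and 46 of 55 UMIs in hormone-rich cells, and *Isl1* 30 of 48 and 26 of 49, with under 50 UMIs of *Isl1* in each library and of *Etv1* in the WT. *Sox4*, which is also active in progenitors, was at 154.9 against 67.5 CPM in WT and 78.8 against 79.3 in the *Tipe0*-/- cells, so it was called in one library and not in the other, a difference that was not tested.

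**Figure D5:**
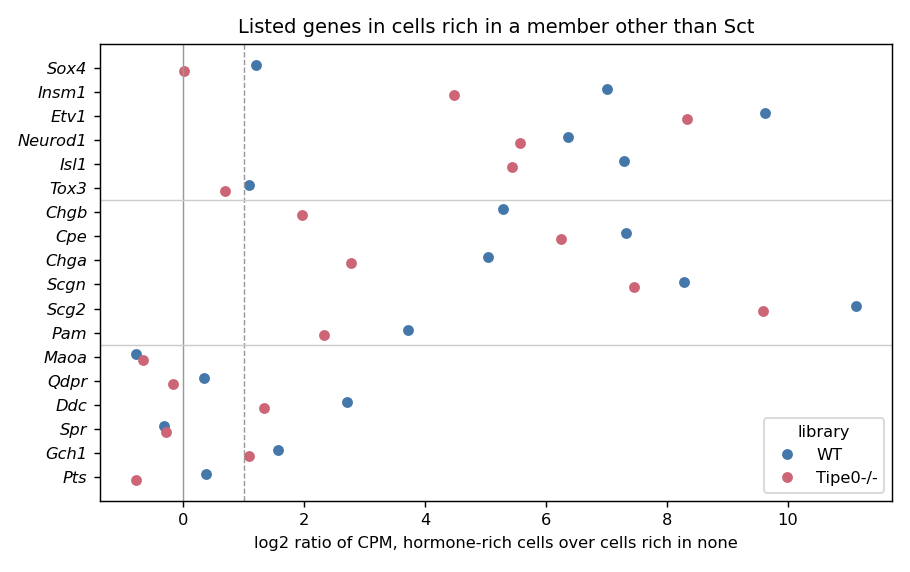
Log2 ratio of CPM in cells rich in a gene other than *Sct* over cells rich in no hormone gene, for listed transcription factors (top), granule and processing genes (middle) and monoamine genes (bottom), with 0.5 UMI added to each sum and a dashed line at 2-fold. *Insm1*, *Neurod1*, *Cpe* and *Scgn* lie above 4 in both libraries, and *Maoa* lies below 0 in both; points of genes with few UMIs outside, such as *Scg2*, depend on the added 0.5.

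Of the genes of monoamine synthesis and transport, 2 of 8 were called in each library, *Ddc*, the decarboxylase that makes serotonin (94.4 against 14.6 CPM in WT and 53.6 against 21.7 in the *Tipe0*-/- library), and *Gch1*, which makes a cofactor of *Tph1* (82.3 against 28.3 and 30.2 against 14.5). *Maoa*, *Qdpr*, *Spr* and *Pts* were not called. Of the sensing genes 1 of 7 and 0 of 6 were called. This was *Ffar2*, a short-chain fatty acid receptor named after its values were seen (26.6 against 7.79 CPM in WT cells). *Ffar1* had 30 of 42 and 20 of 34 UMIs in the hormone-rich cells and *Abcc8*, a subunit of the ATP-sensitive potassium channel, 16 of 29 and 8 of 13, but both had under 50 UMIs in a library. *Slc5a1* and *Slc15a1*, the sugar and peptide transporters that enterocytes also use, were at 77.4 against 152.5 and 46.0 against 32.5 CPM in the WT library. Of the other gut peptides 1 of 6 and 0 of 4 were called: *Tac1*, substance P, stood at 157.3 against 31.2 CPM in WT and 11.7 against 12.9 in the *Tipe0*-/- library. *Insl5*, a colonic L cell hormone, had 3 UMIs in WT and 13 in the *Tipe0*-/- library, all in hormone-rich cells. *Guca2a* and *Guca2b*, the guanylins, and *Nucb2* were not called.

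Receptors of the hormones were mostly undetected in the epithelium: 17 of 31 had no UMI in WT and 19 in the *Tipe0*-/- library, and 3 had at least 50 UMIs. *Sort1*, a sorting receptor that binds neurotensin, was found in every class at 27.7 to 86.3 CPM in the WT library. *Ramp1*, a partner of the amylin receptor, was highest in Paneth-like cells (88.5 and 78.8 CPM) and goblet-like cells (64.2 and 58.8) and at 0.804 and 0.462 CPM in stem-like cells. *Htr4*, a serotonin receptor, had 69 and 89 UMIs, with 6.83 and 10.6 CPM in stem-like cells. None of the 3 was called in hormone-rich cells.

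The same lists were compared between the whole libraries. Of the 16 transcription factors with at least 50 UMIs in the libraries together, 5 were at least 2-fold higher in the *Tipe0*-/- library (against 1.53% of all genes) and 0 lower (against 2.43%), with a median log2 ratio of 0.71. Named here after their values were seen, these were *Neurog3*, which starts the endocrine lineage (26 and 38 UMIs, 0.682 and 1.59 CPM), *Nkx2-2* (0.839 and 1.72 CPM), *Fev* (0.839 and 1.80), *Etv1* (1.13 and 2.30) and *Runx1t1* (0.761 and 1.55). Their log2 ratios of 1.02 to 1.21 stood beside an all-gene median of 0.15. Each of these genes had 26 to 55 UMIs in a library. The lower ends of their intervals lay between 0.28 (*Runx1t1*) and 0.46 (*Neurog3*), so each interval held ratios under 2-fold. Of the 13 granule genes 1, *Scg2*, was 2-fold higher (0.997 and 2.18 CPM), while *Chgb* stood at 32.2 and 21.7 CPM. Among the other peptides *Tac1* was 2-fold lower (33.6 and 12.7 CPM), and among the receptors *Htr4* 2-fold higher (1.81 and 3.72).

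Markers of other cells that can express these genes were checked. Of the 8 mast cell genes, whose cells can make *Tph1*, 2 were at 0, and the list summed to 1367 and 805 UMIs, of which *Mcpt1* gave 430 and 260 and *Kit* 683 and 435. In hormone-rich cells the list stood at 14.5 and 21.8 CPM, against 35.9 and 34.3 in cells rich in none. In each library 1 *Tph1* UMI lay in a cell with at least 10 *Mcpt1* UMIs, and the cells with at least 2 *Tph1* UMIs held 0 of *Mcpt1*. The insulin genes *Ins1* and *Ins2*, expressed by pancreatic islet cells, which also make *Iapp*, had no UMI in either library. The 10 enteric neuron genes summed to 107 and 45 UMIs, with 3 of them at 0 in each library, and 12 and 9 of these UMIs lay in hormone-rich cells, at 29.04 and 15.1 CPM against 2.50 and 1.57 in cells rich in none. Their part in the hormone genes was not tested. The 12 lymphocyte genes were at 67.8 and 15.1 CPM in hormone-rich cells, below their 227.3 and 60.2 CPM in cells rich in none.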

How the data were processed

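The deposited files hold raw UMI counts per gene and cell of 2 libraries, made by the authors with 10x Single Cell 3′ v2 chemistry and Cell Ranger on mm10, per the labels and the study's methods. No normalization was in them. The labels name collagenase and dispase for digestion and the methods DNase I and Dispase.

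The 10 genes, the gene lists and the tests were chosen with earlier results of these data known. Coordinates come from GENCODE vM21 and RefSeq windows on GRCm38. UMIs were summed per library and given as CPM with exact Poisson intervals, ratios with exact binomial intervals, and shares with Clopper-Pearson intervals. Shares of 0 carry the limit of 3 counts. Genes needed at least 50 UMIs to be compared. The smallest WT and Tipe0-/- cells had 3247 and 3562 UMIs, and no cell was left out. Cells were clustered with Seurat 5.3.0 (vst, 2000 variable genes without the 10 genes, 14 principal components, resolution 0.8). Clusters were named from fixed markers. Settings tried besides these were other scalings, limits for a rich cell, weights and sets of cells, and another clustering; leaving out cells above 20000 UMIs or the 3 richest cells of a gene, the 2 cells with the most Chgb, the set of cells rich in a gene other than Sct and the limit on Chgb were chosen after seeing the data. Scrublet (scanpy 1.11.5) called 2 WT and 4 Tipe0-/- cells as doublets, too few to have worked, so the 5% of cells with the highest scores (171 and 101) were left out as an alternative. Named genes of a list are those with at least 10 UMIs in hormone-rich cells, up to 6 by UMIs, and any receptor with at least 50 UMIs. Neurog3, Nkx2-2, Fev, Runx1t1, Rfx3 and Ffar2 were named after their values were seen. Most alike genes are the 3 with the highest correlation in the WT library, named where r is at least 0.3 in both. The ratios with their intervals and the counting of rich cells were tested on simulated data. The simulated gene totals were Poisson counts, without UMIs gathered in a few cells as in these genes. The other steps were not tested in this way. Protein sequences were not used here.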

Additional observations from a re-analysis of the deposited data

How the results depend on the processing

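No paired analysis was possible because each genotype has 1 library. The count of genes at least 2-fold higher in the Tipe0-/- library fell from 2 to 1 without the 5% of cells with the highest doublet scores (Nts then had a log2 ratio of -2.66, the only reversal) and to 1 without the 3 richest cells of each gene. At least 5 UMIs in place of 10 gave 141 WT and 124 Tipe0-/- cells rich in any gene, at least 20 UMIs gave 32 and 20, and thinning to 3000 UMIs with at least 3 UMIs gave 102 in the WT library. Without cells above 20000 UMIs (this and the 3 richest cells were chosen after seeing the data), 25 Tipe0-/- cells were rich in any gene, 13 in a gene other than Sct and 9 in 2 or more. This last count was 8 with at least 20 UMIs and 8 with at least 10 UMIs per 10000. With cells of at least 4 markers as enteroendocrine-like, 95.9% and 97.3% of the UMIs of the 9 genes other than Sct lay in them. Clustering by mean and dispersion formed no enteroendocrine-like cluster, and there 34.6% of goblet-like WT cells, 39.5% of goblet-like Tipe0-/- cells and 3.74% of stem-like WT cells had a Sct UMI at 3000 UMIs. Of the genes, Pyy, Cck, Gip, Sst, Iapp and Tph1 stayed below 0 and Gcg and Ghrl above 0 in all 8 settings. Sst lay between -8.06 (1 UMI in Tipe0-/- cells, without cells above 20000 UMIs) and -2.87. Sct lay between -0.59 and 0.01. With no filter beyond 1 UMI, 8.54% of 17325 genes were 2-fold higher and 7.14% 2-fold lower. Depth limits the call of a rich cell in shallow cells.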
